A study of Mus musculus with 18 samples.

Results

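Mouse embryonic stem (ES) cells cultured with ATN161, which inhibits integrin α5β1, and without a feeder layer were compared with ES cells whose control feeders had been removed. These were 6 of the 18 libraries of the study, 3 in each group, taken by their labels, and all genes were compared. Feeders are embryonic fibroblasts laid under ES cells. The ATN161 group is labelled as ES cells with the inhibitor replacing the feeder layer. The other group is labelled as ES cells cultured on control feeders but with removal of the feeders, and no agent is named for it. ES cells sequenced together with control feeders (3 libraries) and control feeders sequenced alone (3 libraries) served as references. The remaining libraries were p53-defective feeders alone and ES cells on p53-defective feeders. They entered the filter, the scaling and the shared fit. The p53-defective feeders also served, with control feeders, to choose the feeder-specific and ES-specific genes used below. The labels give no strain, sex, passage, dose of ATN161 or length of exposure. They do not say how or when the feeders were taken away, or whether culture went on without them. By label, the 2 groups thus differ in the inhibitor and in whether feeders were replaced or removed, and these cannot be told apart. Genes of chromosome Y were also lower with ATN161, as given below. By its title, the study concerns feeder p53, fibronectin, integrins and pluripotency.

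Integrins are membrane receptors made of an α and a β chain that anchor cells to the matrix around them. The pair α5β1 is the main receptor for fibronectin, the product of Fn1, and ATN161 is a short peptide modelled on the region of fibronectin that helps this receptor to bind. Bound integrins gather adaptors and kinases at focal adhesions, which pull on the actin skeleton and feed the ERK, SRF and YAP routes to the nucleus. Mouse ES cells keep their pluripotent state through Pou5f1, Nanog and Sox2 together with the cytokine LIF, while FGF and ERK signalling moves them toward differentiation.

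Library totals were 19310204 to 19833404 estimated counts with ATN161 and 17662504 to 18107435 after feeder removal. Levels below are in CPM, counts relative to the library size scaled by TMM, each as the value of libraries 1, 2 and 3, and changes are log2 fold changes, ATN161 minus feeders removed, with their standard error (SE). A gene was called, and is said to have risen or fallen, at an adjusted p below 0.05 in edgeR. Of 15389 genes tested, 8527 (55.4%) were called, 4406 higher (28.6%) and 4121 lower (26.8%) with ATN161. At least 2-fold, 530 rose (3.44%) and 1399 fell (9.09%), together 12.5%. The libraries of the groups did not overlap for 10622 genes, or 69%, and the median change of all genes tested was 0.03. Counts of list members below are to be read against these shares, and groups that do not overlap were common. When libraries were scaled on ES-specific genes in place of all genes, 2079 were higher and 5239 lower, and that median moved to -0.14. Nothing in the labels says whether the 3 libraries of a group came from separate cultures. The p-values rest on the spread between replicates in the fit of all 18 libraries, which may be technical.

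Both groups carried RNA of ES cell markers and of fibroblast markers, and the ATN161 group carried less of the latter. Which cells made the fibroblast marker RNA was not tested. The summed level of 24 fibroblast markers was 1142 to 1258 CPM with ATN161, 4559 to 5128 after feeder removal, 7183 to 7626 in ES cells on control feeders and 41750 to 49860 in control feeders alone. No marker of the 24 was at 0 counts in either ES group. Of the 24, 22 fell, against 26.8% of all genes, 17 of them at least 2-fold, with a median change of -1.63. The other markers, Fap at 0.06 and Sfrp1 at -0.29, were not called, but Sfrp1 was called lower in the fit of only the 6 libraries (-0.33, adjusted p = 2.37e-05), with the replicate block in it (4.06e-07) and when scaled on ES-specific genes (-0.46, adjusted p = 0.0125). The 10 defining ES cell markers summed to 4332 to 4463 CPM with ATN161 and 3387 to 3486 after feeder removal, against 0.69 to 1.22 in feeders alone, so the ES label holds in both groups. Genes of chromosome Y also differed, with Ddx3y changed by -1.88, and their relation to the other changes was not tested. In bulk RNA, fewer cells of a type and less RNA per cell cannot be told apart.

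The fibroblast genes did not keep the proportions of the feeders sequenced alone. Dcn, a small proteoglycan that binds collagen, stood at 64.6, 65.9 and 77.0 CPM with ATN161 and at 410, 416 and 384 CPM after feeder removal, with a mean of 488 CPM in control feeders alone. Its change was -2.54 (SE 0.11, adjusted p = 5.6e-14). Lum, lumican of the same family, stood at 13.6, 14.9 and 16.4 CPM against 146, 149 and 118 CPM, with 271 CPM in control feeders. After feeder removal both thus lay within a few fold of the feeders, and with ATN161 every library lay well below. Postn, the matrix protein periostin, fell by 2.14 from a mean of 126 CPM after feeder removal, yet control feeders alone held 5915 CPM. S100a4, a calcium-binding protein used to mark fibroblasts, fell by 2.1.

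**Figure D1:**
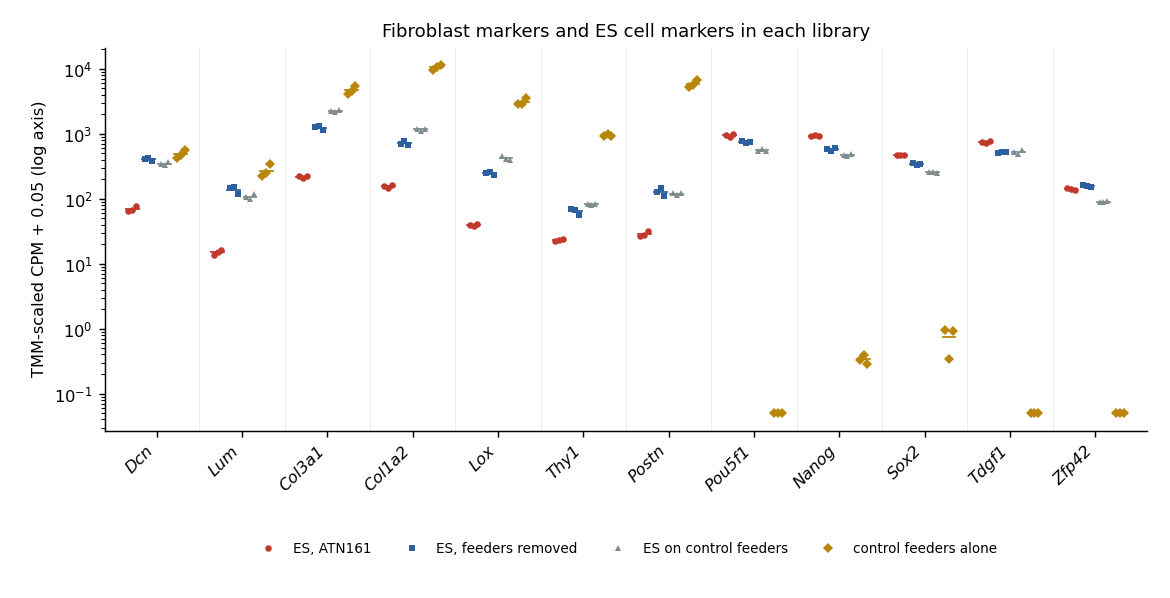
TMM-scaled CPM plus 0.05 on a log axis for 7 fibroblast markers and 5 ES cell markers, with 1 point per library and a bar for the mean of 3 libraries in each of 4 groups. Every fibroblast marker shown is lower with ATN161 (red circles) than after feeder removal (blue squares), while Pou5f1, Nanog, Sox2 and Tdgf1 are higher and Zfp42 lower by much less, with a call of Zfp42 that was lost in 6 alternatives.

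Genes were also split by their level in feeders. Of 1970 genes at least 4-fold higher in control feeders than in the mean of the 6 ES libraries, 958 fell and 84 rose, with a median change of -0.61. Between the limits lay 10694 genes, of which 659 fell at least 2-fold and 199 rose at least 2-fold. Among 2725 genes at least 4-fold lower in feeders, 1076 rose and 491 fell (306 and 190 at least 2-fold), with a median change of 0.22. When those 2725 genes were scaled and tested alone, which changes both the scaling and the genes fitted, 609 were higher and 788 lower. The mean in this split includes the removed libraries, so a high level there can move a fallen gene out of the high class or into the low one, and the fibroblast markers Dcn and Lum miss the 4-fold limit. The split therefore does not separate falls of feeder RNA from other falls. A set of 77 feeder-specific genes stood at 6.02 ± 0.105% of their level in control feeders with ATN161 and 9.03 ± 0.228% after removal (mean ± SD, n = 3 each; two-sided exact permutation test, p = 0.1, the smallest that 3 against 3 libraries allow). Its selection admits only genes at least 8-fold below both control and p53-defective feeders in both ES groups, which limits both values.

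**Figure D2:**
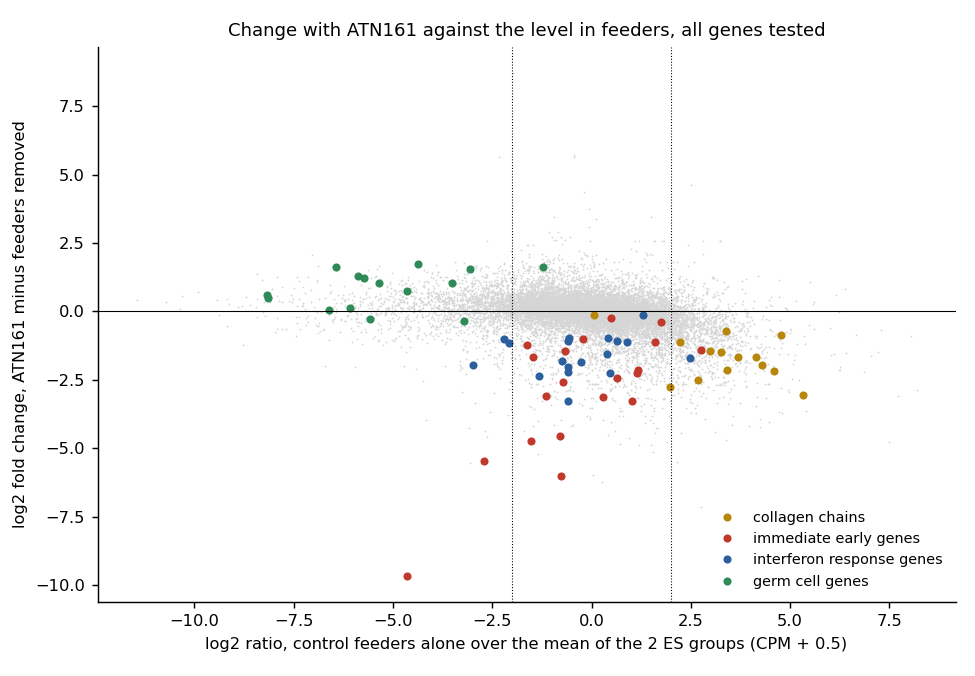
Each grey point is 1 of the 15389 genes tested. The x axis is the log2 ratio of control feeders alone over the mean of the ES groups (CPM plus 0.5), the y axis the log2 fold change, and dotted lines mark the 4-fold limits. Collagen chains (gold) lie at the right and below 0, immediate early genes (red) and interferon response genes (blue) lie below 0 mostly between the dotted lines, and most germ cell genes (green) lie at the left above 0.

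Of all lists, the lowest median change was that of immediate early genes, transcription factors and feedback proteins that serum, growth factors and adhesion switch on within minutes. All 20 tested fell, against 26.8% of all genes, 18 of them at least 2-fold, with a median of -2.34. Of the 20, 19 had groups that did not overlap, as did 69% of all genes. Fosb, a partner of JUN in the AP-1 dimer, stood at 0.0505, 0.405 and 0.312 CPM with ATN161, from 1, 8 and 6 counts. After feeder removal it stood at 213, 209 and 227 CPM, so that every ATN161 library was near 0 and every other one high. Its change was -9.69 (SE 0.20, adjusted p = 9.84e-20), the lowest of all genes tested. Fos, its close relative, stood at 6.52, 5.42 and 5.45 CPM against 263, 244 and 257 CPM, 43.8-fold lower (-5.45, SE 0.10, adjusted p = 5.63e-21). Egr1, a zinc-finger factor downstream of ERK and SRF, stood at 28.5, 26.9 and 28.3 CPM against 784, 668 and 798 CPM (-4.75, SE 0.13). Neither gene's groups came near each other.

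The same order held through the family. Egr2 stood at 0.354, 0.608 and 0.208 CPM with ATN161 and at 31.0, 22.2 and 24.2 CPM after removal (-6.02, SE 0.23), and Egr3 changed by -4.54. Jun, the main partner of FOS, stood at 20.8, 23.3 and 23.4 CPM against 200, 190 and 203 CPM (-3.13, SE 0.09). Zfp36, which promotes decay of short-lived messengers, stood at 12.1, 11.8 and 11.7 CPM against 106, 95.8 and 105 CPM (-3.11, SE 0.09). Each of these was lower in every ATN161 library. At the other end, Jund stood at 124, 111 and 120 CPM against 156, 121 and 145 CPM, and its groups overlapped (-0.25, SE 0.08). The call of Jund was lost without ATN161 replicate 2 (adjusted p = 0.0726) or removed replicate 1 (0.0719). That of Ier3, at -0.37, was lost without ATN161 replicate 1 (0.0626), ATN161 replicate 3 (0.0722) or removed replicate 3 (0.0602), and with limma-voom (0.0557).

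The references place these levels. Fos averaged 731 CPM in ES cells on control feeders and 19.6 CPM in control feeders alone, Fosb 561 and 3.83 CPM, and Egr1 1101 and 135 CPM. Control feeders alone held less Fos, Fosb and Egr1 than the libraries after feeder removal, and more fibroblast marker RNA. The ATN161 libraries were below control feeders for each of them. The fibroblast marker sum fell in the same libraries, and the part of feeder RNA in these falls was not tested. Heat shock genes, another stress-induced group, gave a mixed count: of 15 tested, 3 rose and 5 fell with a median of -0.04, where 28.6% and 26.8% of all genes did. Hspa1a, an inducible chaperone, did fall, from 23.3, 19.4 and 16.4 CPM to 5.26, 4.76 and 4.16 CPM (-2.06, SE 0.19).

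**Figure D3:**
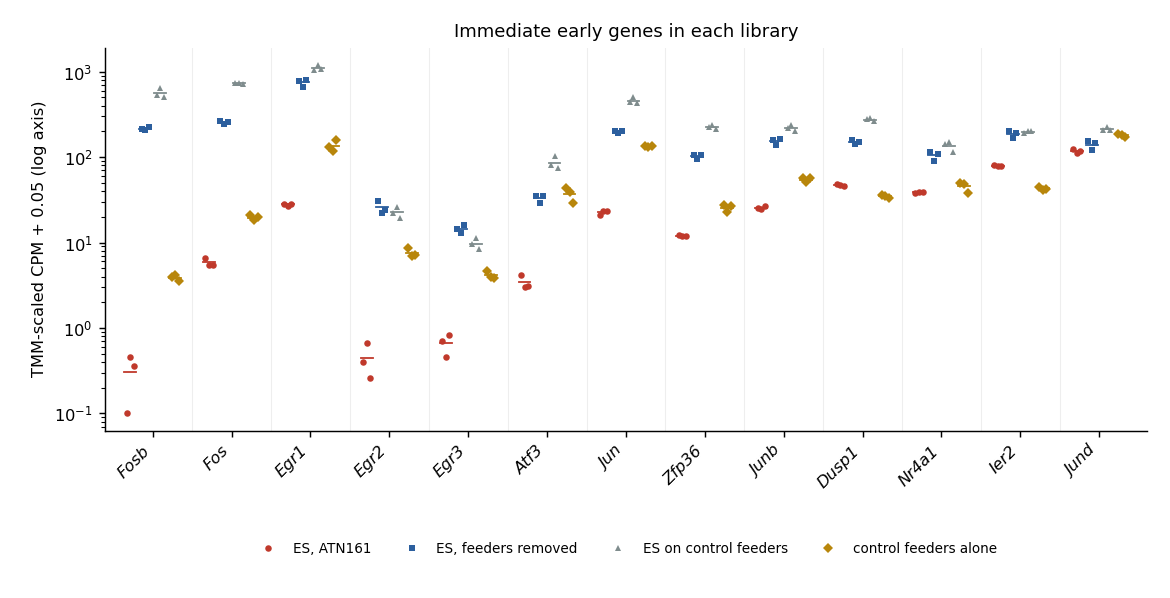
TMM-scaled CPM plus 0.05 on a log axis for 13 immediate early genes, with 1 point per library and a bar for the mean of 3 libraries in each of 4 groups. The ATN161 libraries (red circles) are the lowest of the 4 groups for Fosb, Fos, Egr1, Egr2, Egr3, Atf3, Jun, Zfp36 and Junb, and overlap the removed libraries (blue squares) for Jund alone among the genes shown.

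Promoters of immediate early genes are known for CArG boxes, which SRF binds, and for CRE sites (TGACGTCA), which CREB binds. The 250 bases before each RefSeq start in build GRCm38.p6 were searched on both strands, and 16 of the 20 genes had such a window. A CArG box was found in 2 of 16 (12.5%), Egr2 and Zfp36, against 1.62% of all genes with a window. A CRE was found in 3 of 16 (18.8%), Btg2, Maff and Dusp1, against 1.77%. The other motifs searched in the same windows were the E-box CACGTG, found in 4 (25%, against 6.86%), the AP-1 site TGANTCA, found in 0 (against 7.82%), and the interferon-stimulated response element, found in 1 (6.2%, against 3.46%). No match says only that these letters are not in this window, as for Fos and Fosb. The last 150 bases before the start are shown for 4 of the 5, which changed by -6.02 (Egr2), -3.11 (Zfp36), -2.44 (Maff) and -1.66 (Dusp1). They are 5′ to 3′ in the direction of the gene, with the CArG box in capitals in Egr2 and Zfp36 and the CRE in capitals in Maff and Dusp1. Maff and Dusp1 were chosen after their values were seen.
Egr2 (chr10:67537416-67537565, plus strand): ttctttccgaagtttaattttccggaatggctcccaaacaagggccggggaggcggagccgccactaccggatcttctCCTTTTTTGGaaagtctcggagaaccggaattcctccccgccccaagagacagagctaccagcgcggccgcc
Zfp36 (chr7:28379229-28379378, minus strand): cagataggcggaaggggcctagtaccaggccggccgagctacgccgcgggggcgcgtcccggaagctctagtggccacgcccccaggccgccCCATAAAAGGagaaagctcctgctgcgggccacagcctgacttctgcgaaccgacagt
Maff (chr15:79347370-79347519, plus strand): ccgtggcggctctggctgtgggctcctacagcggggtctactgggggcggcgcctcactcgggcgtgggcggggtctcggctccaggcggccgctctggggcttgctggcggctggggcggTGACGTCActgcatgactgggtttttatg
Dusp1 (chr17:26508473-26508622, minus strand): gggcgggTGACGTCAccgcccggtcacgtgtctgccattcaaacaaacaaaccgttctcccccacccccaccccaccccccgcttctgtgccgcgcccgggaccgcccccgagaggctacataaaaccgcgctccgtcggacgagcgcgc

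Genes of the receptor that ATN161 addresses and of its ligand changed by small amounts. Itga5, the α5 chain (chromosome 15, 103344286 to 103366791 in GRCm38), stood at 194, 182 and 182 CPM with ATN161 and at 153, 148 and 158 CPM after removal. It was higher in every ATN161 library, by 0.28 (SE 0.09, adjusted p = 0.0085). That call was lost when scaled on ES-specific genes (0.11, adjusted p = 0.422) and without removed replicate 2 (0.23, adjusted p = 0.0677). Itgb1, the β1 chain shared by many integrins, stood at 367, 367 and 380 CPM against 462, 459 and 505 CPM and fell by 0.36 (SE 0.08). Fn1 (chromosome 1, 71585473 to 71653280) stood at 1365, 1277 and 1307 CPM against 1618, 1708 and 1598 CPM, and 12700 CPM in control feeders. Its groups did not overlap, but its change of -0.32 (SE 0.14) missed the threshold at an adjusted p of 0.0549. Fn1 was called in a fit of only the 6 libraries (-0.36, adjusted p = 1.39e-06), with the replicate block in that fit (4.68e-09), and in 5 of the other alternatives at -0.32 to -0.49.

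Per transcript length, in the authors' TPM, Fn1 averaged 221 ± 7.91 with ATN161 and 314 ± 10.1 after removal, Itgb1 127 ± 1.4 and 184 ± 10.2, and Itga5 60.4 ± 2.8 and 56.2 ± 1.83 (SD, n = 3 each). The β1 chain was thus the most abundant integrin chain listed on this scale, with α5 next among the α chains listed. Itga6, the α6 chain, averaged 51.7 ± 3.74 and 54.6 ± 1.52, and after removal it did not differ from Itga5 beyond their spread. In TPM the groups of Itga5 overlapped, at 57.6 to 63.2 with ATN161 and 54.4 to 58.0 after removal. Of 12 genes for fibronectin and RGD-binding chains tested, 3 rose and 5 fell, with a median of -0.25, against 28.6% and 26.8% of all genes. Itgav, the αv chain, stood at 71.5, 68.9 and 65.5 CPM against 109, 114 and 106 CPM (-0.68, SE 0.12), and was lower in every ATN161 library. Itgb8, a partner of αv, fell from 2.41, 2.30 and 2.38 CPM to 0.152, 0.405 and 0.467 CPM, and Itga4 fell by 0.89. Itga2b, the platelet αIIb chain, rose by 1.05 from low levels. With scaling on ES-specific genes the counts were 1 higher and 7 lower. Of 8 collagen-binding and laminin-binding chains, 2 fell, Itga11 (-2.94) and Itga10 (-0.63), both higher in feeders. The call of Itga10 was lost without removed replicate 3 (adjusted p = 0.122).

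Focal adhesion genes moved in both directions. Of 24 tested, 7 rose and 9 fell, with a median of -0.01 (4 and 11 when scaled on ES-specific genes). Over all genes, 28.6% rose and 26.8% fell. Parva, an adaptor between integrin-linked kinase and actin, stood at 19.1, 18.6 and 20.9 CPM with ATN161 against 50.4, 53.2 and 59.7 CPM (-1.48, SE 0.10), and Zyx, zyxin, fell by 0.98. Both are higher in feeders than in ES cells. Bcar1, the scaffold p130Cas, stood at 67.6, 65.0 and 66.3 CPM against 43.7, 41.8 and 49.9 CPM (0.55, SE 0.07), and Actn4, an actin cross-linker, rose by 0.44. The groups of these 4 genes did not overlap.

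Targets of actin, SRF and YAP fell far more. Of 20 tested, 15 fell, 9 of them at least 2-fold, and 1 rose, with a median of -0.64, where 26.8% of all genes fell and 28.6% rose. Of the 20, 12 are high in feeders. Ccn1, a secreted matrix protein and YAP target, stood at 48.9, 45.7 and 47.5 CPM with ATN161 and at 449, 429 and 492 CPM after removal, 9.64-fold lower (-3.27, SE 0.13, adjusted p = 1.97e-14). Control feeders alone averaged 380 CPM of Ccn1, less than the removed group. Lats2, a kinase that restrains YAP and is itself a YAP target, stood at 9.91, 9.22 and 9.66 CPM against 30.2, 33.2 and 32 CPM (-1.73, SE 0.10). Axl, a receptor kinase, changed by -1.59 and Vim, the mesenchymal filament vimentin, by -1.42, and both are high in feeders. In all 4 genes every ATN161 library lay below every removed library. The gene that rose, Actg2, had overlapping groups at 0.908 to 3.38 CPM, and its call was lost when either ATN161 replicate 2 or 3 or removed replicate 1 or 2 was left out (adjusted p = 0.0888 to 0.197) with limma-voom (0.108), with no filter on low counts (0.0856) and when scaled on ES-specific genes (0.0698).

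Matrix genes fell together with the fibroblast markers. Of 14 collagen chains, 13 fell, 11 at least 2-fold, with a median of -1.67, where 26.8% of all genes fell and 28.6% rose. Of the 14, 12 are high in feeders. Col3a1 and Col1a2 are also among the fibroblast markers, so these lists share members. Col8a1 stood at 10.6, 11.6 and 10.7 CPM with ATN161 and at 75.0, 79.7 and 67.6 CPM after removal (-2.76, SE 0.12). Col3a1, a fibrillar chain, stood at 222, 205 and 221 CPM against 1257, 1334 and 1138 CPM (-2.53, SE 0.14), and Col5a1 and Col1a2 changed by -2.13 and -2.19. No library of one group reached the other. Col15a1, at -0.14, was not called. Of 16 basement membrane genes, 12 fell and 1 rose, with a median of -0.52. Lama4, a laminin chain of mesenchyme and vessels, changed by -2.32, Col4a5 by -1.97, Lama2 by -1.72 and Sparc, a matrix calcium-binding protein, by -0.93. The riser was Lama1, the laminin chain of the early embryo, at 0.44, and its call was lost when any library other than ATN161 replicate 2 was left out (adjusted p = 0.0536 to 0.0884), with no filter on low counts (0.0593) and when scaled on ES-specific genes (0.272).

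Interferon response genes fell almost as a whole. These are antiviral genes that cells switch on in response to type I interferon. Of 18 tested, 17 fell, against 26.8% of all genes, 14 at least 2-fold, with a median of -1.63. All 18 had groups that did not overlap, as did 69% of all genes. By the 4-fold limit, 1 of the 18 is high in feeders. Rsad2, viperin, stood at 2.22, 2.08 and 2.08 CPM with ATN161 and at 18.8, 20.5 and 22.1 CPM after removal, 9.6-fold lower (-3.26, SE 0.14, adjusted p = 2.83e-14). Oasl2, an oligoadenylate synthetase-like protein, stood at 20.52, 20.02 and 22.1 CPM against 79.7, 85.1 and 88.7 CPM (-2.02, SE 0.08). Oas2 stood at 13.95, 13.99 and 13.92 CPM against 55.3, 56.3 and 49.7 CPM, and Ifi44 fell by 2.23. Each was lower in every ATN161 library. Control feeders alone averaged 7.39 CPM of Rsad2, 35.0 of Oasl2 and 3.83 of Oas2, below the removed group, and ES cells on control feeders 20.7, 101 and 43.5 CPM. Stat2 (-0.14) was not called, but was called lower in the fit of only the 6 libraries (-0.18, adjusted p = 0.00615), with the replicate block in it (0.00122) and when scaled on ES-specific genes (-0.32, adjusted p = 0.0106).

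Antigen presentation genes, which interferon also induces, also fell: of 14 tested, 11 fell, 8 at least 2-fold, and 1 rose, with a median of -1.3. Among all genes, 26.8% fell and 28.6% rose. H2-K1, a class I heavy chain, stood at 57.5, 55.8 and 64.1 CPM against 212, 212 and 267 CPM (-1.96, SE 0.09), H2-D1 changed by -1.87, H2-Q4 by -2.54, and their light chain B2m by -1.79. The libraries of these 4 genes did not overlap. None of the 14 is high in feeders by the 4-fold limit. Class I genes are close copies of each other, so reads can be split between them. The gene that rose was Cd74, the class II invariant chain, at 1.51 to 2.12 CPM against 0.748 to 1.26 CPM (0.94, SE 0.24). The rule for the largest falls among genes low in feeders, a class that a high level after removal can bring about, also named the following. Cfb, complement factor B, stood at 1.01, 0.456 and 1.04 CPM against 38.0, 43.1 and 35.7 CPM (-5.53, SE 0.18), with 1.95 CPM in control feeders. Tnfaip3, which dampens NF-κB, changed by -4.38, Ccl11, the chemokine eotaxin, by -3.95, Tgtp1, an interferon-induced GTPase, by -3.67 and Cxcl1, a neutrophil chemokine, by -3.34. Ifi205 and Ifi209 of the multicopy Ifi200 family changed by -4.59 and -4.25.

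The interferon-stimulated response element was searched as GAAA, any 2 bases and GAAA. It was found on either strand in 7 of the 15 interferon genes that have a window (46.7%) and in 2 of 10 antigen presentation genes (20%), against 3.46% of all genes with a window. Among the same 15 interferon genes the AP-1 site was in 4 (26.7%, against 7.82%), and the CArG box, CRE and E-box in 0. The windows shown cover the 150 bases before the start of 4 genes that hold it, with the element in capitals. In Rsad2 and Ifit1 it is on the opposite strand, so its reverse complement is shown, and in Isg15 overlapping copies make 1 run. Ifit1 (-1.86) and Isg15 (-1.55), an RNA-binding protein and a ubiquitin-like protein, were chosen after their values were seen.
Rsad2 (chr12:26456453-26456602, minus strand): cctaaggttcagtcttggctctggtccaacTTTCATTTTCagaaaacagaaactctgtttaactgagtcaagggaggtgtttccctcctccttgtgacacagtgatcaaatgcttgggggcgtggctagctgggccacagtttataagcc
Ifit1 (chr19:34640739-34640888, plus strand): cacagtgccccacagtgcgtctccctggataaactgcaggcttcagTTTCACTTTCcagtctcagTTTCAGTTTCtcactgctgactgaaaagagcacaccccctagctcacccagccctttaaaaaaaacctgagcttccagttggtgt
Isg15 (chr4:156200819-156200968, minus strand): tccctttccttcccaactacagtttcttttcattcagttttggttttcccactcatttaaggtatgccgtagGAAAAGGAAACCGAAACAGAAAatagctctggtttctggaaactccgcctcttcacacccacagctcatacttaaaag
B2m (chr2:122147537-122147686, plus strand): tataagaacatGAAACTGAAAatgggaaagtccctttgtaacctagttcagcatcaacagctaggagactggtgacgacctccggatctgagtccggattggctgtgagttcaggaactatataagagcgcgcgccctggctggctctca

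Pluripotency genes shifted by small amounts in both directions. Of 15 core factors, 8 rose and 4 fell, with a median of 0.35, where 28.6% of all genes rose and 26.8% fell. When scaled on ES-specific genes, 5 core factors rose and 7 fell, with a median of 0.18. Nanog stood at 916, 947 and 937 CPM with ATN161 and at 575, 537 and 604 CPM after removal, 1.63-fold higher (0.71, SE 0.10, adjusted p = 2.38e-06). Sox2 stood at 464, 478 and 462 CPM against 360, 327 and 344 CPM (0.45, SE 0.10). Pou5f1 stood at 964, 894 and 987 CPM against 761, 722 and 733 CPM (0.36, SE 0.11, adjusted p = 0.0123). All 3 were higher in every ATN161 library. The call of Pou5f1 was lost when scaled on ES-specific genes (0.19, adjusted p = 0.146), without removed replicate 2 (0.32, adjusted p = 0.0633) and without removed replicate 3 (0.33, adjusted p = 0.0523). Reads of Pou5f1 and Nanog may be shared with pseudogenes. Dppa2 rose by 0.52. Dnmt3l, a partner of the DNA methyltransferases, stood at 198, 180 and 189 CPM against 86.4, 84.8 and 101 CPM (1.06, SE 0.10). Lin28a, an RNA-binding protein that blocks a microRNA family, went the other way, at 33.2, 33.6 and 31.8 CPM against 69.7, 67.6 and 65.6 CPM (-1.04, SE 0.08).

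Among 22 genes of the naive, preimplantation-like state, 6 rose and 11 fell, with a median of -0.20, where 28.6% of all genes rose and 26.8% fell. Sox15 stood at 22.9, 22.3 and 24.3 CPM with ATN161 against 11.5, 10.6 and 9.42 CPM (1.14, SE 0.12), and Gbx2, a LIF target, rose by 0.96. Klf2, a naive pluripotency factor, stood at 81.6, 80.4 and 79.4 CPM against 155, 122 and 135 CPM (-0.77, SE 0.09), and Tet2, an eraser of DNA methylation, fell by 0.96. None of these groups overlapped. Of 15 formative and primed genes, 8 fell and 1 rose, with a median of -0.42. Dnmt3b, the de novo methyltransferase, stood at 122, 119 and 116 CPM against 188, 185 and 184 CPM (-0.64, SE 0.07), Lef1 changed by -1.24 and Cdh2, N-cadherin, by -1.23. Of 15 genes of the rare 2-cell-like state, 6 rose and 3 fell. Usp17la, Usp17lb, Usp17le and Usp17ld rose by 0.96, 0.86, 0.63 and 1.11, and members of these families are near-identical, so each is uncertain alone.

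Signalling genes of the ES cell state mostly fell, where 26.8% of all genes fell and 28.6% rose. Of 14 LIF and STAT3 genes, 8 fell and 1 rose, with a median of -0.30. Lif itself stood at 12.4, 12.3 and 14.1 CPM with ATN161 against 46.2, 40.5 and 44.0 CPM (-1.75, SE 0.11), with 15.6 CPM in control feeders. Junb, also an immediate early gene, changed by -2.58, Osmr, the oncostatin M receptor that feeders express strongly, by -2.24, and Socs2, a feedback inhibitor, by -1.0. Of 17 FGF and ERK feedback genes, 11 fell and 2 rose, with a median of -0.41. Spry2, an ERK-induced inhibitor, stood at 66.7, 70.9 and 67.2 CPM against 157, 140 and 149 CPM (-1.12, SE 0.09), Il17rd changed by -0.70 and Phlda1 by -0.74. Fgf4, the FGF ligand that ES cells make, went the other way, at 238, 251 and 240 CPM against 175, 164 and 172 CPM (0.51, SE 0.07). The groups of Lif, Spry2 and Fgf4 did not overlap.

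Other pathways split by gene, as did all genes tested, of which 28.6% rose and 26.8% fell. In the NODAL pathway 4 of 12 rose and 4 fell. The NODAL antagonists and targets fell: Lefty2 stood at 11.5, 11.0 and 13.5 CPM with ATN161 against 50.1, 48.0 and 49.2 CPM (-2.03, SE 0.11, adjusted p = 1.28e-11), and Lefty1 fell by 1.52. Tdgf1, the NODAL co-receptor Cripto, and Acvr1b, a receptor, rose by 0.54 and 0.40. Of 11 WNT targets, 6 fell and 3 rose, with a median of -0.40. Ccnd1, cyclin D1, stood at 57.9, 59.6 and 66.9 CPM against 200, 221 and 232 CPM (-1.83, SE 0.08), and Notum and Znrf3, feedback inhibitors of WNT, changed by -0.72 and -0.65. Of 14 BMP and ID genes, 4 rose and 5 fell. Dusp9, a phosphatase that dampens ERK and is a BMP target in ES cells, stood at 186, 176 and 182 CPM against 65.3, 65.9 and 72.1 CPM (1.42, SE 0.07, adjusted p = 7.41e-13), and Id1 rose by 0.72. The receptors Bmpr1a and Bmpr2 changed by -0.48 and -0.61. Lefty2, Ccnd1 and Dusp9 each had groups that did not overlap. The NODAL and BMP medians of -0.04 and 0.11 became -0.21 and -0.07 when scaled on ES-specific genes.

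**Figure D4:**
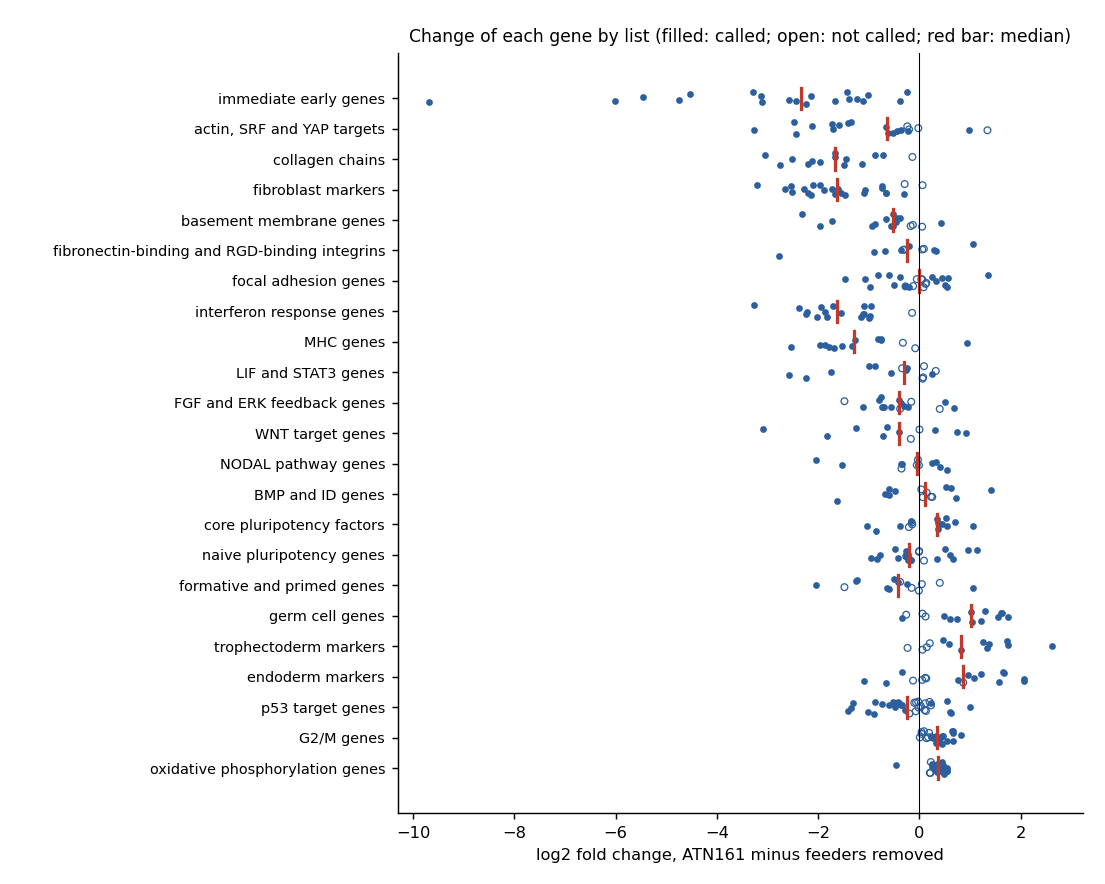
Log2 fold change (ATN161 minus feeders removed) of each gene tested in 23 lists, with filled points for called genes, open points for genes not called and a red bar for the median. Medians of immediate early, collagen, fibroblast, interferon and MHC genes lie left of 0, from -2.34 to -1.3. Those of germ cell, trophectoderm and endoderm genes lie right of 0, at 1.02, 0.82 and 0.87. Endoderm genes spread from -1.1 to 2.07, and most other lists also straddle 0.

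Germ cell genes rose as a group. Many of them are silenced by DNA methylation in most cells and some are weakly active in ES cells. Of 15 tested, 11 rose, 8 at least 2-fold, and 1 fell, with a median of 1.02, where 28.6% of all genes rose and 26.8% fell. When scaled on ES-specific genes the counts were 11 and 2 and the median 0.85. Taf7l, a testis form of a TFIID subunit on chromosome X, stood at 59.5, 56.8 and 58.7 CPM with ATN161 and at 16.6, 17.99 and 17.5 CPM after removal, 3.36-fold higher (1.75, SE 0.09, adjusted p = 4.78e-13). Stra8, needed to enter meiosis, stood at 65.9, 61.9 and 67.8 CPM against 20.3, 20.3 and 22.3 CPM (1.64, SE 0.08). Asz1 stood at 39.8, 42.5 and 40.9 CPM against 16.2, 16.8 and 16.9 CPM (1.3, SE 0.10), and Mael, which like Asz1 acts in piRNA silencing, rose by 1.22. All libraries with ATN161 lay above all removed libraries for these 4. ES cells on control feeders lay between the groups for Taf7l, Stra8, Asz1 and Mael, with means of 36.3, 31.7, 24.1 and 22.5 CPM. Control feeders held 1.36 CPM of Taf7l and none of the other 3. Prdm1, which starts the germ line, was the gene that fell (-0.35), and Hormad1, Dppa3 and Stk31 were not called. Dppa3 was called lower in 6 alternatives, at -0.26 to -0.43, among them the replicate block in the fit of 6 libraries (-0.30, adjusted p = 0.000432) and limma-voom (-0.26, adjusted p = 0.0189).

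The E-box CACGTG was found on either strand in 8 of the 14 germ cell genes that have a window (57.1%), against 6.86% of all genes with a window. The genes with an E-box were Mael, Hormad1, Sycp1, Stk31, Sycp3, Ddx4, Tdrd1 and Taf7l, of which Hormad1 and Stk31 were not called. The AP-1 site was in 2 of the 14, the interferon-stimulated response element in 1, and the CArG box and CRE in 0. The last 150 bases before the start are shown for 4 genes that hold it and rose at least 2-fold, with the E-box in capitals. Tdrd1 (1.62), Ddx4 (1.05) and Sycp1 (1.02), of the piRNA route, germ plasm and the synaptonemal complex, were chosen after their values were seen.
Taf7l (chrX:134476491-134476640, minus strand): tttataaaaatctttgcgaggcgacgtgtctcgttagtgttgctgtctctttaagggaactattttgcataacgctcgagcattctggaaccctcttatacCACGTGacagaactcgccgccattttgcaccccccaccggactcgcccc
Tdrd1 (chr19:56826059-56826208, plus strand): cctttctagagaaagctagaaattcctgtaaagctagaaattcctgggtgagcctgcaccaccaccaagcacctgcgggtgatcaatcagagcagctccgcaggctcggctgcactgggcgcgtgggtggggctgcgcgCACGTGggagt
Ddx4 (chr13:112652311-112652460, minus strand): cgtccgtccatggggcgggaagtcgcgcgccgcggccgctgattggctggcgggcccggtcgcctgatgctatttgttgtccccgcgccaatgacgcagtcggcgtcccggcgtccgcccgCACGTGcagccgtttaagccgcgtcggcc
Sycp1 (chr3:102936101-102936250, minus strand): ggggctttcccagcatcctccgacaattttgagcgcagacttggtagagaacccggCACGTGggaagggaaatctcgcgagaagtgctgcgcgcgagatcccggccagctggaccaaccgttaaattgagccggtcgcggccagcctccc

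Trophectoderm genes rose from low levels, while other early lineages gave mixed counts. Of 13 trophectoderm markers, 9 rose, 6 at least 2-fold, and 0 fell, with a median of 0.82. Among all genes, 28.6% rose and 26.8% fell. Krt8 and Krt18, partner keratins of simple epithelia, stood at 16.2, 14.2 and 16.0 CPM and at 10.2, 11.4 and 12.8 CPM with ATN161. After removal they stood at 4.33, 4.59 and 4.98 CPM and at 2.08, 3.74 and 4.39 CPM, changes of 1.74 (SE 0.10) and 1.75 (SE 0.18). Eomes, a T-box factor of trophoblast and mesendoderm, stood at 27.3, 25.4 and 27.2 CPM against 9.38, 10.7 and 10.5 CPM (1.39, SE 0.09), and Krt19 rose by 1.33. These 4 did not overlap between groups. Cdx2 and Elf5, which define trophectoderm, were too low to be tested. The summed trophectoderm markers were 56.0 to 61.7 CPM with ATN161, 18.5 to 23.6 after removal and 51.8 to 56.0 in ES cells on control feeders. ES cells on control feeders averaged 14.4 CPM of Krt8, 12.5 of Krt18 and 20.1 of Eomes, above every removed library, and Eomes there lay below every ATN161 library.

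Of 17 endoderm markers, 9 rose and 3 fell, with a median of 0.87, where 28.6% of all genes rose and 26.8% fell. The 9 defining endoderm markers, however, summed to 37.0 to 39.8 CPM with ATN161 and 35.6 to 38.7 after removal, which overlap. Gata6, a primitive endoderm factor, stood at 8.85, 7.60 and 8.83 CPM against 4.99, 4.54 and 5.41 CPM (0.76, SE 0.13), and the receptor Cxcr4 and the cubilin partner Amn rose by 1.57 and 2.07 from a few CPM or less. Lamb1, a laminin chain, fell by 0.67. Of 10 mesoderm markers, 5 rose, among them Mesp2 (1.76), Hand1 (2.62) and Eomes, and 1 fell, Msx1 (-2.26), which is high in feeders. Counts were low for Hand1, at 32, 17 and 31 with ATN161 against 1, 3 and 8. Those of Msx1 were 2, 4 and 3 against 13, 16 and 13. T and Mixl1 were not tested for low counts. Of 9 neural markers, 2 rose, Sox1 at 1.5 and Otx1 at 1.87, and 4 fell, Ncam1, Zic1, Nes and Tubb3. Otx1 had only 13, 11 and 12 counts with ATN161 against 2, 2 and 5. Ncam1 and Zic1, at -0.77 and -0.94, are high in feeders. Sox1 stood at 6.72, 7.10 and 7.63 CPM with ATN161 against 2.69, 2.40 and 2.49 CPM, so its groups lay apart. Of 14 EMT genes, 9 fell and 1 rose, with a median of -0.63, and 6 of the 14 are high in feeders. Zeb2 changed by -2.08 and Zeb1 by -1.04, factors that repress E-cadherin. Which cells these falls came from was not tested.

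**Figure D5:**
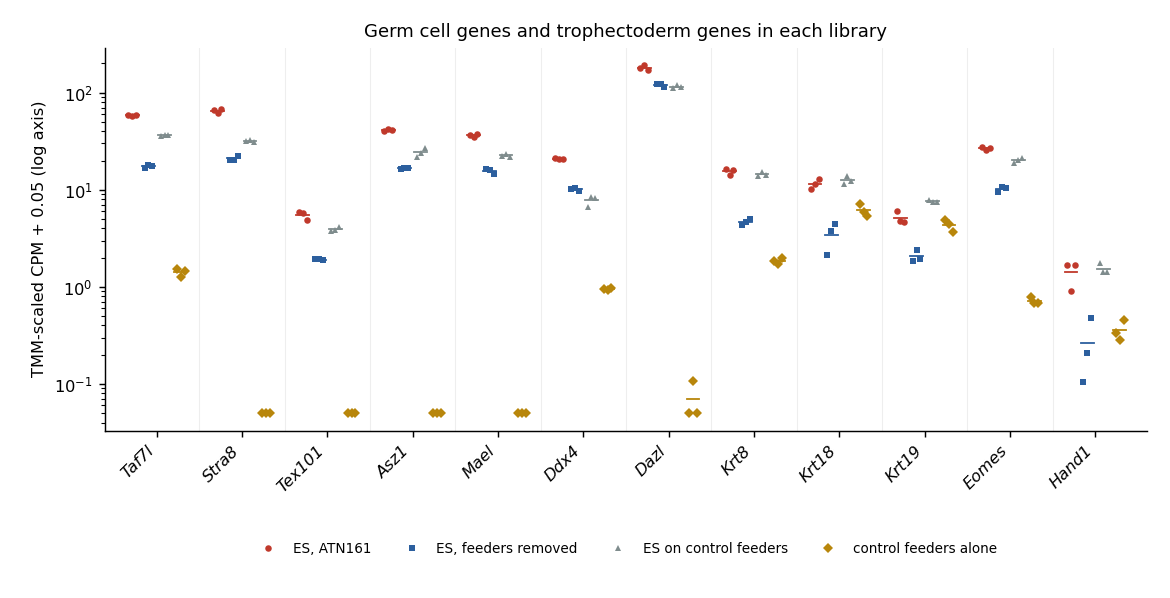
TMM-scaled CPM plus 0.05 on a log axis for 7 germ cell genes and 5 trophectoderm genes, with 1 point per library and a bar for the mean of 3 libraries in each of 4 groups. ATN161 libraries (red circles) lie above the removed libraries (blue squares) for all 12, and ES cells on control feeders (grey triangles) lie near the ATN161 libraries for Krt8, Krt18 and Hand1.

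Among called genes without overlap that averaged 10 CPM or more in either group, predicted models left out, the largest rises outside these lists were in genes of varied function. Arl4d, a small GTPase of the ARF family, stood at 31.3, 32.2 and 29.1 CPM with ATN161 and at 4.94, 5.71 and 5.04 CPM after removal, 5.9-fold higher (2.56, SE 0.12, adjusted p = 1.95e-13). Tuba3b, an α-tubulin of testis, stood at 114, 105 and 108 CPM against 24.1, 26.4 and 27.7 CPM (2.07, SE 0.09). Elf3, an epithelial ETS factor, stood at 102, 101 and 95.2 CPM against 30.2, 32.1 and 33.1 CPM (1.64, SE 0.09). None of these overlapped between groups, and each was low in feeders. Rasl11a (2.0), Dkkl1 (1.8), Proser2 (1.77), Clgn (1.69), a testis chaperone, and Fbxo2 (1.64) completed the rises named by rule. Under the same limits, the largest falls outside the lists were Angptl7 (-6.25), whose removed libraries spread from 29.9 to 55.7 CPM, and Prelp (-5.98), a matrix proteoglycan. Clca3a1 changed by -4.24, and Cav1, the coat protein of caveolae, by -3.19. Irgm1, an interferon-induced GTPase, stood at 31.9, 35.7 and 39.5 CPM against 220, 222 and 220 CPM (-2.63, SE 0.08), and Steap4 fell by 2.94.

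The p53 gene Trp53 stood at 434, 412 and 445 CPM with ATN161 and at 364, 355 and 404 CPM after removal. Its groups did not overlap, and its change of 0.20 (SE 0.09) missed the threshold at an adjusted p of 0.0576. Trp53 was called in the fit of the 6 libraries alone (0.16, adjusted p = 0.00792) and with the replicate block in it (0.17, adjusted p = 0.000165). Of 34 genes on the p53 target list, which holds Trp53 itself, 17 fell and 5 rose, with a median of -0.24. Among all genes, 26.8% fell and 28.6% rose. Mdm4 and Mdm2, which restrain p53, stood at 113, 122 and 103 CPM against 297, 329 and 228 CPM (-1.34, SE 0.11) and at 332, 348 and 336 CPM against 582, 558 and 549 CPM (-0.73, SE 0.07). Btg2, an antiproliferative gene that is also on the immediate early list, changed by -1.01 and Eda2r, a death receptor, by -1.31. Groups of these 4 did not overlap. Gadd45a, of DNA damage responses, rose by 1.0, and Cdkn1a, the cell cycle inhibitor p21, stood at 398, 406 and 412 CPM against 567, 523 and 596 CPM (-0.47, SE 0.11). The last 2 were chosen after their values were seen.

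Cell cycle, energy and ribosome genes rose by small amounts, and when scaled on ES-specific genes fewer rose and their medians were lower. Among all genes, 28.6% rose and 26.8% fell in the main fit. Of 24 G2/M genes, 17 rose and 0 fell, with a median of 0.35, or 10 and 0 with a median of 0.17 when scaled on ES-specific genes. Cdk1, the mitotic kinase, stood at 371, 355 and 373 CPM with ATN161 against 210, 202 and 206 CPM (0.83, SE 0.09), and Plk1, Ccnb2 and Prc1 rose by 0.67, 0.67 and 0.55. Each was higher in every ATN161 library. Of 24 replication genes, 12 rose and 1 fell (3 and 2 when scaled on ES-specific genes), led by Rfc4 at 0.56. Of 22 oxidative phosphorylation subunits, 18 rose and 1 fell, with a median of 0.37 (8 and 1, median 0.20), and Uqcrc1 stood at 513, 484 and 495 CPM against 341, 335 and 346 CPM (0.55, SE 0.07). Of 24 ribosomal proteins, 18 rose and 0 fell, with a median of 0.35 (9 and 0, median 0.18). Glycolysis and hypoxia counted 10 risers and 1 faller among 23 genes, but 1 and 3 when scaled on ES-specific genes. Adm, a hypoxia-induced peptide, fell by 1.4.

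Stress and lipid lists differed in direction, where 28.6% of all genes rose and 26.8% fell. Of 20 genes of the integrated stress response, 11 rose and 4 fell (6 and 5 when scaled on ES-specific genes). Ddit4, a brake on mTOR, stood at 230, 226 and 209 CPM with ATN161 against 124, 106 and 132 CPM (0.87, SE 0.10), and the serine and asparagine enzymes Phgdh and Asns rose by 0.70 and 0.63. Of 18 endoplasmic reticulum stress genes, most fell, 12 against 2 that rose, with a median of -0.26. Dnajb9 changed by -1.42 and the chaperone Hspa5 by -0.65, while Sdf2l1 rose by 0.76. Nqo1, an NRF2 target, stood at 152, 141 and 163 CPM against 70.9, 70.8 and 83.0 CPM (1.02, SE 0.09), and 4 of the 13 oxidative stress genes tested rose and 1 fell, with a median of 0.15 that was -0.02 when scaled on ES-specific genes. Of 10 DNA methylation genes, 3 rose and 4 fell, or 1 and 6 when scaled on ES-specific genes. Of 20 cholesterol genes, 3 rose and 4 fell, with Pmvk at 0.95 among those that rose, and of 12 fatty acid genes, 2 rose and 3 fell. Macrophage markers, another cell type that feeder cultures can hold, summed to 8.41 to 11.1 CPM with ATN161 and 11.8 to 12.7 after removal, against 186 to 247 in control feeders. Of the 14, 1 rose and 3 fell, and the defining markers Tyrobp and C1qc were at 0 in both groups. The fallers were Mpeg1 (-3.36), Lyz2 and Cd14. Lyz2 had 8 counts over the ATN161 libraries and 22 over the removed ones, and its call was lost in 4 of the fits that left out 1 library (adjusted p = 0.0606 to 0.145). That of Cd14 was lost in 4 such fits (0.0877 to 0.122), with the DESeq2 Wald test (0.0559) and with limma-voom (0.0578).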

How the data were processed

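RNA was isolated with Trizol and made into libraries with a TruSeq mRNA kit, per the labels' protocols. The deposited table gave, per transcript and library, estimated counts, TPM, FPKM and normalised values, made by the authors. The submitters' processing notes name DESeq2 1.2.10, StringTie 1.3.3b, SAMtools 1.4 and also HISAT2 2.1.0, without their order, and the mouse build GRCm38 (mm10). The deposited estimated counts were summed per gene and rounded (89.3% of sums above 0 were within 0.05 of a whole number). Deposited TPM was summed per gene for fibronectin and integrin genes, and the other columns were not used. Of 19630 genes, 19482 had a symbol and 15389 passed edgeR's filterByExpr.

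All 18 libraries of 6 groups were fitted with edgeR 4.0.16 (quasi-likelihood, TMM, R 4.3.3), and p-values were adjusted by Benjamini-Hochberg over all genes tested. The script was also tested on simulated counts with known changes, which enter no result. A standard error is the log2 fold change divided by the square root of the F statistic of this fit. Genes were named by rule: Trp53, Fn1, Itga5, Itgb1, Itgav, Pou5f1, Nanog and Sox2, the 12 largest rises and falls among called genes without overlap (either group averaging 10 CPM or more, no predicted models), the 10 largest of each among genes low in feeders, the 10 smallest adjusted p at 2-fold, and up to 4 members of each list. Other list members named were chosen after their values were seen. The comparison and all lists were chosen with earlier results of these data known.

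Same-numbered libraries of the groups deviated together (correlations of 0.118, 0.229 and 0.336 over 11051 genes). The main fit, which gave the reported calls, did not pair them, and a block for the replicate number was fitted as an alternative. Alternatives were DESeq2 1.42.0 size factors and its Wald test, limma 3.58.1 voom, other filters, 6 libraries alone, a replicate block, scaling on ES-specific genes, and leaving out each library. Promoter windows are RefSeq's, build GRCm38.p6. Between replicates of a group, chi-square per degree of freedom was 1.94 to 7.15, where counting error alone gives about 1, and genes with a few counts per library are less precise.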

Additional observations from a re-analysis of the deposited data

How the results depend on the processing

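Counts of called genes kept within 1.5 times of the reported ones under DESeq2 size factors, the DESeq2 Wald test, limma-voom, no filter, the 6 libraries alone and each library left out. Exceptions were the following. A filter of 5 CPM in 3 libraries left 1260 genes changed at least 2-fold, from 1929, with fewer genes tested. Scaling on ES-specific genes left 2079 called higher, from 4406, against 5239 lower. The 2725 genes low in control feeders, scaled and tested alone, gave 1397 called, 609 higher and 788 lower, with 431 at least 2-fold. With the replicate block, 10239 genes were called in a fit of the 6 libraries (5031 higher, 5208 lower, 1757 at least 2-fold) and 8463 in the fit of 18. Leaving out 1 library at a time gave 7199 to 7821 called, 3344 to 3946 higher, 3635 to 4082 lower and 1880 to 1986 at least 2-fold. Of 239 genes followed by name, 210 kept their call and direction in every alternative in which they were tested, and none changed direction with a call. The feeder-specific difference was -3.01 percentage points and ranged from -4.42 to -0.79 with other folds of selection.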

Other observations

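Genes of chromosome Y were lower with ATN161, a group of genes whose level in mouse ES cultures follows the presence of that chromosome. Ddx3y, an RNA helicase, stood at 3.03, 3.14 and 4.88 CPM with ATN161 and at 13.1, 14.8 and 12.7 CPM after feeder removal (-1.88, SE 0.16, adjusted p = 6.18e-09 in edgeR), with 16.1 CPM in ES cells on control feeders and 1.26 CPM in control feeders. Kdm5d, Uty and Eif2s3y changed by -2.10, -2.07 and -1.23. In all 4 genes every ATN161 library lay below every removed library. These genes were chosen after their values were seen.

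A single predicted transcript model carried the counts of some strongly lowered genes. Phka2, a subunit of phosphorylase kinase, stood at 213, 221 and 171 CPM against 657, 682 and 501 CPM (-1.61, SE 0.12). One predicted model held 7101 of its counts with ATN161 and 29835 after removal, while all its other transcripts summed to 4750 and 4166. For Chchd3, a mitochondrial protein, the predicted model held 11548 and 34000 counts and the others 5427 and 6242. Among genes at least 2-fold lower, 26.2% had a predicted model as the transcript with most counts, against 14.7% of all genes tested and 13.8% of those at least 2-fold higher. In Fn1 one curated transcript held 29776 counts with ATN161 and 18385 after removal, or 38.5% and 20.2% of the gene, while the other transcripts summed to 47578 and 72615. How the reads were split among transcripts was not tested.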
